A study of Danio rerio with 45 samples.

Results

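Interferon sensing and response genes are described here across 3 genotypes and 5 stages of zebrafish development, for 10 genes chosen by name: the RNA sensors ifih1 and dhx58, the transcription factors irf3, irf7, stat1a and stat1b, and the antiviral effectors mxa, mxb, rsad2 and isg15. Every non-control probe whose accession belongs to one of these genes was taken, which gave 15 of 43603 probes, in a set of 13633 genes that the array names. The arrays held wild-type (WT) embryos, embryos labelled dnmt3aa-/- (called maternal-zygotic MZdnmt3aa-/- in the study, so that they also lack the protein the mother would supply) and embryos labelled dnmt3bb.2-/-, from cleavage (1-2 cell) through gastrula (shield) and segmentation (5-somite) to 1 dpf and 2 dpf, dpf being days post fertilization. The mutated genes encode de novo DNA methyltransferases. Each of the 15 combinations had 3 arrays, 45 in all, each made from whole-embryo RNA of a pool of 20 animals with no infection or interferon treatment in the labels. A lower signal in such bulk RNA may come from fewer cells of a type or from less RNA per cell, and these cannot be told apart.

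In vertebrates, viral RNA in the cytosol is bound by the sensors Ifih1 (MDA5) and Rig-I, while Dhx58 (LGP2), a related helicase without the signalling domain, tunes that response. The signal reaches Irf3 and Irf7, which switch on interferon genes, and secreted interferon then acts through its receptors on Stat proteins, which drive effectors such as the Mx GTPases, the viperin enzyme Rsad2 and the ubiquitin-like protein Isg15. RNA at the 1-2 cell stage was laid down by the mother, because the embryo's own genome is still silent. Differences at that stage therefore concern RNA from the mothers. Neither the labels nor the study give the mothers' genotype for dnmt3bb.2-/-. Levels below are log2 of the scaled fluorescence of 1 probe and are not comparable between probes. A probe entered a test once any of the 6 arrays compared read it well above background, and a difference was called where limma's p, adjusted over all probes tested, did not exceed 0.01.

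As a check of the labels, the dnmt3bb.2 probe was lower on the arrays labelled dnmt3bb.2-/- at all 5 stages, with means of 14.17 in WT and 12.11 in the mutant at shield. The dnmt3aa probe was not lower on the arrays labelled dnmt3aa-/-: its means were 8.39 in WT and 9.34 there at shield, and it was higher there at all 5 stages. These arrays are therefore named throughout by their label, to which the study's prefix MZ is added. The share of probes well above background was 65.8% to 83.4% in WT, 63.9% to 82.4% on the arrays labelled MZdnmt3aa-/- and 62.4% to 84.6% in dnmt3bb.2-/-, and no spot was saturated. The 15 arrays labelled MZdnmt3aa-/- lay on 4 slides with no other genotype and were scanned on a day of their own, so for this label genotype, slide and scan day cannot be told apart. WT and dnmt3bb.2-/- shared a slide at every stage but 5-somite, and the slide was entered as a fixed block there. Where a group spanned several slides it was entered as a random block. Values with either block are given where they end a call. Both mutants were compared with the same WT arrays.

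Detection divided the genes before any comparison. irf7 (both probes) and stat1a were well above background on 45 of 45 arrays. rsad2 and probe 1 of dhx58 were above background on 0 of 45 arrays in any genotype, at log2 signals of 1.89 to 3.19 and 1.76 to 4.10, and were never tested. mxb was above background on 0 of 15 WT arrays and on 5 of 15 arrays of each mutant, and irf3 on 3 WT arrays, 10 arrays labelled MZdnmt3aa-/- and 4 dnmt3bb.2-/- arrays. isg15 was above background on 36 arrays, which left out only the 9 arrays of the 1-2 cell stage.

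**Figure D1:**
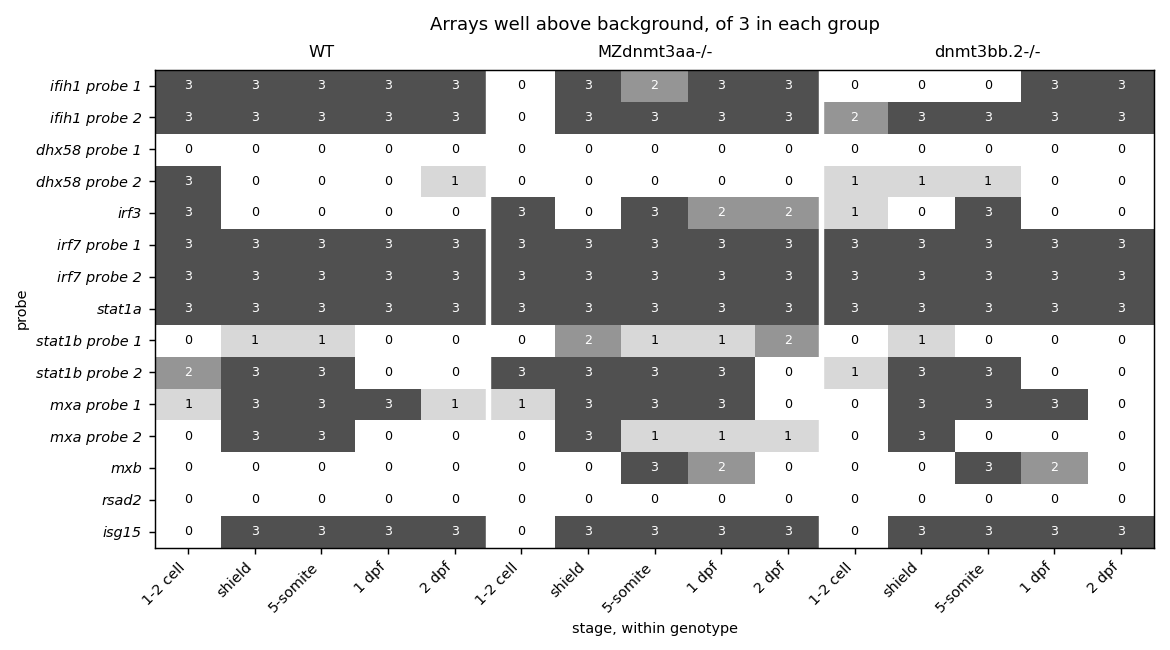
Number of arrays, of 3 in each group, on which each of the 15 member probes was well above background, with probes as rows and the 5 stages within each genotype as columns. rsad2 and dhx58 probe 1 are at 0 throughout, and mxb has counts above 0 only in the mutants at 5-somite and 1 dpf.

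In WT, the members were set apart from each other by when they were highest. irf3 and irf7 were highest at 1-2 cell, isg15, mxa and stat1b at shield, and stat1a and probe 1 of ifih1 at 2 dpf. From 1-2 cell to shield, 9 of 12 tested member probes were called (5 higher, 4 lower), beside 83.8% of all probes tested, and isg15 had the greatest change of them. Its 3 WT arrays gave 2.54, 3.84 and 3.51 at 1-2 cell, none above background, and 9.69, 9.28 and 9.53 at shield. The groups lay far apart, and the rise was at least 73.8-fold (log2 difference 6.21, SE 0.36, adjusted p = 1.62e-05). Here and below, where no array of a group was above background, "at least" marks a fold taken against the higher of the probe's own signal and the dimmest signal above background on each array. Such a probe entered the test only through its brighter group, so that a difference was built into the filter. This holds for 7 of the 24 member calls in WT steps, 5 of 12 and 7 of 21 against WT for the labels MZdnmt3aa-/- and dnmt3bb.2-/-, and 6 of 8 between the mutants. Their adjusted p-values are no support for a difference. The folds marked "at least" are no strict lower bounds. The dimmest signal above background is that of any probe on the array, and member probes could be below background at higher signals. ifih1 probe 1 was so at up to 4.14 on the arrays labelled MZdnmt3aa-/- at 1-2 cell. Where the probe's own signal was the higher, as for isg15 here, the fold is the plain ratio to a signal below background.

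mxa and stat1b shared that rise to the gastrula. mxa probe 1 went from 3.51 ± 0.96 (SD, n = 3) to 8.20 ± 0.15, a log2 difference of 4.69 (adjusted p = 0.000255), and mxa probe 2 rose at least 9.70-fold. stat1b probe 2 went from 4.87 ± 0.72 to 9.15 ± 0.05 (log2 difference 4.28, adjusted p = 9.51e-05), and its dimmer probe 1 rose at least 4.77-fold with 1 of 3 shield arrays above background. irf3 and irf7 ran the other way: irf3 fell at least 17.6-fold from 7.54 ± 0.07 (adjusted p = 1.45e-05), and irf7 fell by 2.31 and 2.60 on the log2 scale at its probes 1 and 2. Probe 2 of dhx58 was called lower by 0.99, a call that was lost without any single 1-2 cell array or without shield replicate 1 or 2 (adjusted p up to 0.028), with 75th percentile scaling (0.0438) or in the fit to all 45 arrays (0.11) and that turned to a rise of 0.13 under the normexp background correction. Over all probes tested the median change was -0.32. Here and below, normexp adds an offset of 50 to every intensity before scaling. This shrinks log2 differences of dim probes. Losses or changes of sign at such probes therefore do not decide whether a call depends on the background correction.

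Later WT steps brought the early peaks down. The 5-somite arrays of WT shared neither slide nor scan day with WT arrays of other stages. In the steps to and from 5-somite, stage, slide and scan day therefore cannot be told apart. From shield to 5-somite, 6 of 10 tested member probes were called, 1 of them higher, beside 76.6% of all probes, at a median change over all probes of 0.26. stat1b probe 2 fell by 2.03 and mxa probes 1 and 2 fell by 1.48 and 1.39, whereas ifih1 probe 2 rose by 1.74 to 7.80 ± 0.13. The mxa probe 2 call was lost in the fit to all 45 arrays (adjusted p = 0.0734). irf7 fell again, by 1.07 and 1.00 at its probes. From 5-somite to 1 dpf, 6 of 10 were called beside 73.2%, with stat1b probe 2 dropping at least 10.98-fold out of the detected range and mxa probe 1 falling by 0.94, a call lost in the fit to all 45 arrays (adjusted p = 0.0933). From 1 dpf to 2 dpf, 3 of 8 were called beside 56.5%: stat1a rose by 1.31 (SE 0.07, adjusted p = 2.52e-05), isg15 rose by 0.87 (adjusted p = 0.000991), and mxa probe 1 fell by 1.68, a call lost without any single 1 dpf array or without 2 dpf replicate 1 or 2 (adjusted p up to 0.0179). With the slide as a random block the calls of isg15 and mxa probe 1 were lost (adjusted p = 0.0188 and 0.0189). That of isg15 was also lost with quantile normalization (0.0268) and in the fit to all 45 arrays (0.177). That of mxa probe 1 was also lost with normexp (-0.098, 0.144).

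Against WT, the share of member probes called lay above that of the whole array in some comparisons and below it in others. On the arrays labelled MZdnmt3aa-/-, 5 of 9 tested member probes were called at 1-2 cell (1 higher, 4 lower) beside 57.3% of all probes, 0 of 10 at shield beside 6.59% higher and 5.68% lower over the array, 3 of 12 at 5-somite beside 21.3%, 2 of 12 at 1 dpf beside 20.8% and 2 of 11 at 2 dpf beside 12.6%. At shield, where limma called no member, 6 member probes had an unadjusted p under 0.05, the lowest being stat1a at an adjusted p of 0.0128. The share of all probes under that unadjusted p was not counted. At an adjusted p of at most 0.05, 2 of the 10 passed beside 30.1% of all probes. In dnmt3bb.2-/-, 5 of 9 were called at 1-2 cell (1 higher, 4 lower) beside 31.4%. At shield 5 of 11 were called (1 higher, 4 lower) beside 51.5%, followed by 7 of 13 at 5-somite (4 higher, 3 lower) beside 35.8%, 3 of 8 at 1 dpf (1 higher, 2 lower) beside 46.9% and 1 of 8 at 2 dpf beside 14.9%. irf3 and mxb after shield entered the tests against WT only through mutant arrays. Over the 5 stages, the difference from WT itself changed with stage at 6 of 13 member probes for the label MZdnmt3aa-/- beside 49.7% of all probes, and at 6 of 13 for dnmt3bb.2-/- beside 59.1% (limma F test of the 4 interaction contrasts). mxb was among the called probes of both mutants and entered these F tests through mutant arrays alone.

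**Figure D2:**
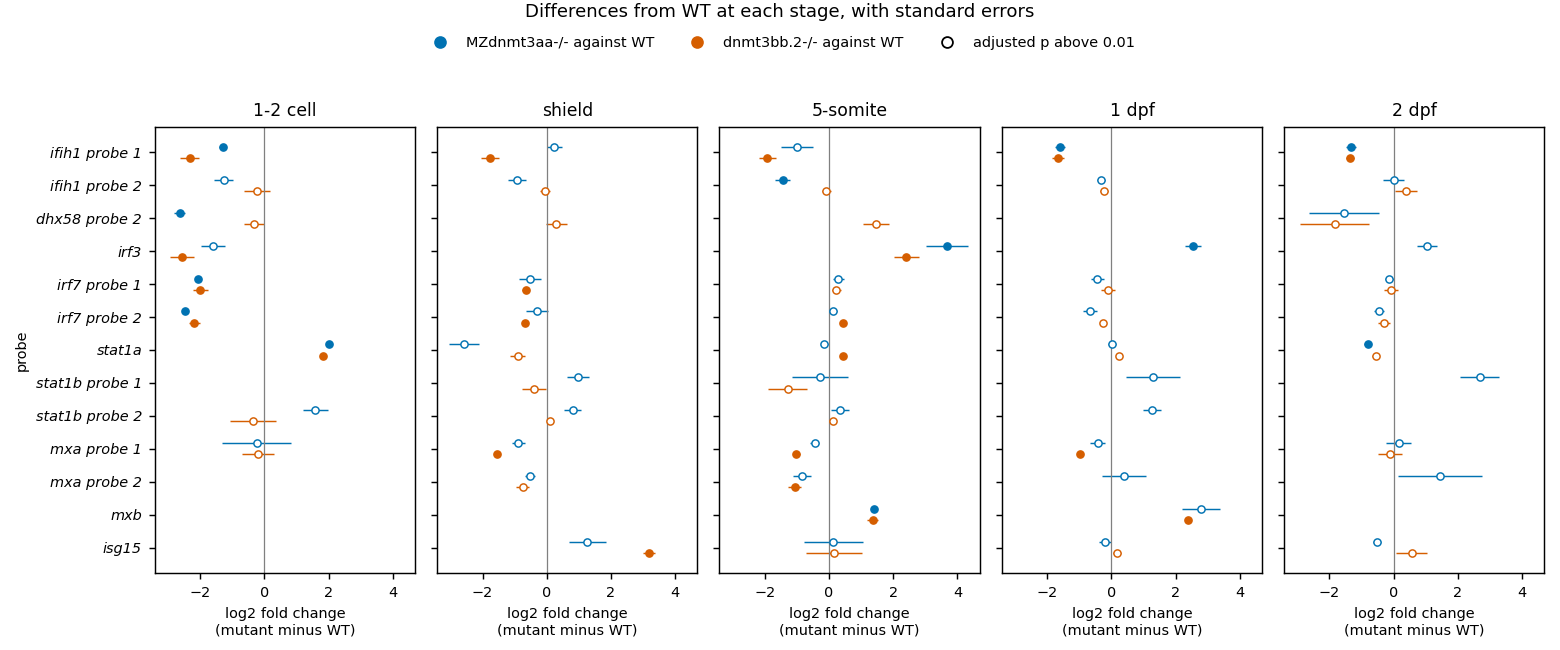
Log2 difference from WT (horizontal axis, mutant minus WT, with limma standard errors) of each tested member probe (vertical axis) at each stage, blue for arrays labelled MZdnmt3aa-/- and orange for dnmt3bb.2-/-, filled where the adjusted p was at most 0.01. irf7 is about 2 log2 units lower and stat1a about 2 higher in both at 1-2 cell, and isg15 stands 3.18 higher in dnmt3bb.2-/- at shield.

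Among the sensors, ifih1 gave the most repeated calls, but at 1 of its probes only. At 1-2 cell, probe 1 read 5.33, 5.23 and 5.26 in WT, 3.76, 4.02 and 4.14 on the arrays labelled MZdnmt3aa-/- and 3.57, 2.81 and 2.46 in dnmt3bb.2-/-, all 6 mutant arrays being below background. It was at least 2.47-fold lower on the former (adjusted p = 0.000253) and at least 3.09-fold lower in the latter (adjusted p = 0.002). In dnmt3bb.2-/- the probe was called lower at all 5 stages, at least 3.39-fold at shield, at least 3.78-fold at 5-somite and it fell by 1.65 and 1.35 on the log2 scale at 1 dpf and 2 dpf. At 5-somite WT read 5.75, 5.72 and 6.65 and dnmt3bb.2-/- 3.94, 4.13 and 4.30, and at 1 dpf dnmt3bb.2-/- read 4.85, 4.59 and 4.41. No dnmt3bb.2-/- array reached a WT array of its stage. At 2 dpf, where every array was above background, WT read 6.93, 6.81 and 6.75 and dnmt3bb.2-/- 5.67, 5.33 and 5.43 (log2 difference -1.35, SE 0.12, adjusted p = 0.000763).

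The same ifih1 probe was also called lower on the arrays labelled MZdnmt3aa-/- at 1 dpf and 2 dpf, by 1.60 and 1.33. At 1 dpf WT read 5.95, 6.34 and 6.52 against 4.53, 4.75 and 4.72, with no overlap (adjusted p = 0.00151), and at 2 dpf the labelled arrays read 5.27, 5.39 and 5.82 (adjusted p = 0.00306). At shield they read 5.23, 6.01 and 5.55, within the WT range on 1 array and above it on the others, and the difference of 0.24 was not called (adjusted p = 0.489). With normexp the difference at 1-2 cell was 0.56 on the arrays labelled MZdnmt3aa-/- and -0.09 in dnmt3bb.2-/-. The medians over all probes were 0.38 and 0.09 there. The normexp offset shrinks differences at such dim signals, so this does not decide whether the calls depend on the background correction. With quantile normalization both calls were lost (adjusted p = 0.016 and 0.0103). For dnmt3bb.2-/- the call was lost at 1-2 cell without any single WT array (adjusted p up to 0.012), at shield without WT replicate 1 or 2 (up to 0.0129), with the slide as a block (0.0358) or with normexp (-0.15, 0.0298), at 5-somite without dnmt3bb.2-/- replicate 1 or 2 (up to 0.0108), and at 2 dpf with the slide as a block (0.0132). For the arrays labelled MZdnmt3aa-/- it was lost at 1 dpf without WT replicate 2 (0.0111) and at 2 dpf without any single WT array or labelled replicate 1 or 2 (up to 0.0167).

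Probe 2 of ifih1 did not follow probe 1 in its calls. In dnmt3bb.2-/- it was called at no stage, with differences from -0.23 at 1-2 cell to 0.38 at 2 dpf. On the arrays labelled MZdnmt3aa-/- it was called at 5-somite alone, where WT read 7.93, 7.79 and 7.67 and the labelled arrays 6.63, 6.57 and 5.86, all below WT (log2 difference -1.44, SE 0.23, adjusted p = 0.00598). That call was lost without any single WT array or without labelled replicate 1 or 2 (adjusted p up to 0.0286) and with the slide as a random block (-1.54, adjusted p = 0.0503). At 1-2 cell probe 2 was also lower on these arrays, at 3.54 to 4.08 against 4.60 to 5.59 in WT. It was not called there, but passed with the strict filter on dim probes (65.6% of all probes called). At 5-somite probe 1 had means of 6.04 in WT and 5.04 on these arrays, not called. The probes of this gene therefore differed in which genotype and stage was called, and in dnmt3bb.2-/- probe 2 did not share the lower signal. dhx58 was measured by probe 2 on 7 arrays, and its call at 1-2 cell, at least 4.65-fold lower on the arrays labelled MZdnmt3aa-/- (WT 4.63, 4.76 and 4.98, labelled arrays 2.47, 2.06 and 1.93, adjusted p = 0.000122), turned to a difference of 0.55 with the normexp correction. In dnmt3bb.2-/- the same probe read 4.31, 5.13 and 3.98 at that stage and was not called.

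Of the transcription factors, irf7, a driver of interferon transcription, was lower in both mutants at the 1-2 cell stage, at both of its probes. Probe 1 read 10.43, 10.44 and 10.59 in WT, 8.33, 8.52 and 8.39 on the arrays labelled MZdnmt3aa-/- and 8.35, 9.00 and 8.12 in dnmt3bb.2-/-. Probe 2 read 9.46, 9.40 and 9.49 in WT, 7.08, 7.07 and 6.79 on the labelled arrays and 7.29, 7.56 and 6.92 in dnmt3bb.2-/-. Every mutant array lay below every WT array at both probes, by means of 2.07 and 2.47 for the label MZdnmt3aa-/- (fold 4.20 and 5.53, adjusted p = 1.93e-05 and 2.29e-05) and of 1.99 and 2.19 for dnmt3bb.2-/- (fold 3.98 and 4.56, adjusted p = 0.00177 and 0.000404). The calls for the first label were lost with the normexp correction, at differences of -1.27 and -1.18, and that of probe 1 in dnmt3bb.2-/- without any single WT array (adjusted p up to 0.0113) or with the slide as a block (0.0155).

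After 1-2 cell the irf7 differences were smaller. At shield, WT read 6.85, 6.86 and 6.82 at probe 2 and dnmt3bb.2-/- 6.29, 6.15 and 6.05, lower on every array by a mean of 0.68 (SE 0.07, adjusted p = 0.000528, lost with normexp at -0.11 and 0.0231), and probe 1 was lower by 0.66, a call that was lost without WT replicate 1 or 2 or dnmt3bb.2-/- replicate 2 (adjusted p up to 0.0122), with the slide as a block (0.0295) or in the fit to all 45 arrays (0.0194). The arrays labelled MZdnmt3aa-/- spread widely there, with 6.95, 5.72 and 6.95 at probe 2, and overlapped WT. At 5-somite probe 2 was slightly higher in dnmt3bb.2-/-, at 6.32, 6.26 and 6.24 against 5.86, 5.79 and 5.90 in WT (log2 difference 0.42, adjusted p = 0.00148), while probe 1 was not called at 0.22. The probe 2 call was lost with normexp (0.08, adjusted p = 0.169), with trend and robust eBayes (0.0139) and in the fit to all 45 arrays (0.121). At 1 dpf and 2 dpf no irf7 probe was called in either mutant, with differences between -0.68 and -0.09.

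stat1a, a signal transducer below the interferon receptors, was higher in both mutants at the 1-2 cell stage, and later differences had either sign. At 1-2 cell, WT read 8.64, 8.65 and 8.56, the arrays labelled MZdnmt3aa-/- 10.57, 10.62 and 10.70, and dnmt3bb.2-/- 10.43, 10.57 and 10.29. All 6 mutant arrays were above WT, by 2.02 (SE 0.05, adjusted p = 8.98e-06) and 1.82 (SE 0.09, adjusted p = 0.000104), and these calls held under every alternative run. At shield the values lay in the other order: WT read 9.30, 8.83 and 9.67, dnmt3bb.2-/- 8.29, 8.51 and 8.28 and the labelled MZdnmt3aa-/- arrays 7.48, 6.84 and 5.76. Neither group overlapped WT, but the differences of -0.91 (adjusted p = 0.0149) and -2.57 (SE 0.47, adjusted p = 0.0128) did not pass the threshold, and that of dnmt3bb.2-/- passed it with the slide as a block (-1.31, adjusted p = 0.00876).

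From 5-somite on, stat1a differences were within 1 log2 unit. dnmt3bb.2-/- was called higher at 5-somite, at 9.73, 9.73 and 9.72 against 9.37, 9.23 and 9.26 (log2 difference 0.44, adjusted p = 0.00139), a call lost in the fit to all 45 arrays (adjusted p = 0.1195). At 2 dpf WT read 10.23, 10.18 and 10.39 and the arrays labelled MZdnmt3aa-/- 9.42, 9.35 and 9.58, all lower (log2 difference -0.81, SE 0.11, adjusted p = 0.00415), a call lost without any single WT array or labelled replicate 1 or 2 (adjusted p up to 0.0209). dnmt3bb.2-/- read 9.87, 9.56 and 9.68 at that stage and was not called (-0.56, adjusted p = 0.015). The difference between genotypes at 5-somite itself was called, with stat1a 0.59 lower on the arrays labelled MZdnmt3aa-/- than in dnmt3bb.2-/- (adjusted p = 0.0076). This call was lost without any single dnmt3bb.2-/- array or labelled replicate 1 (adjusted p up to 0.0352), with the slide as a random block (0.0786), in the fit to all 45 arrays (0.0287) and without the filter on dim probes (0.0102).

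irf3, the other interferon-inducing factor, was detected in WT at 1-2 cell only, at 7.56, 7.47 and 7.59. The mutants were lower there: 5.63, 5.39 and 6.79 on the arrays labelled MZdnmt3aa-/- (-1.60, adjusted p = 0.0139, not called) and 4.80, 5.77 and 4.33 in dnmt3bb.2-/- (-2.58, SE 0.37, adjusted p = 0.00341). The second call was lost without any single WT array or dnmt3bb.2-/- replicate 1 (adjusted p up to 0.018) or with the slide as a block (0.0263). At 5-somite the WT arrays had fallen to 2.37, 3.69 and 2.36, all below background, whereas the arrays labelled MZdnmt3aa-/- read 7.12, 7.09 and 5.25 and dnmt3bb.2-/- 4.88, 5.34 and 5.43, all above it.

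The irf3 excess at 5-somite was at least 9.12-fold for the first label (log2 difference 3.68, adjusted p = 0.00833) and at least 3.78-fold in dnmt3bb.2-/- (2.41, adjusted p = 0.00428). The first call was lost without any single WT array or labelled replicate 1 or 2 (adjusted p up to 0.0358), with the slide as a random block (3.44, 0.132) or without the filter on dim probes. The second was lost without WT replicate 1 or 3 or any single dnmt3bb.2-/- array (up to 0.0181). Normexp left differences of 0.30 and 0.12, neither called. At 1 dpf irf3 was above background on 2 of the 3 arrays labelled MZdnmt3aa-/-, at 5.23, 4.38 and 4.42 against 2.35, 1.96 and 2.11 in WT and 1.94, 2.28 and 2.29 in dnmt3bb.2-/-. It was at least 4.16-fold higher than in WT (adjusted p = 0.00155, lost without WT replicate 2 or 3 at an adjusted p up to 0.0111) and at least 4.80-fold higher than in dnmt3bb.2-/- (adjusted p = 0.00153, lost with normexp at 0.22 and 0.0129).

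stat1b passed no test against WT in the reported fits. At 1-2 cell probe 2 read 6.21 to 6.65 on the arrays labelled MZdnmt3aa-/-, all above WT at 4.07 to 5.46. It was not called there, but passed with the strict filter on dim probes (65.6% of all probes called). At shield, its highest stage, probe 2 read 9.18, 9.16 and 9.09 in WT, 9.53, 9.82 and 10.52 on the arrays labelled MZdnmt3aa-/- and 9.37, 9.09 and 9.31 in dnmt3bb.2-/-. The labelled arrays were all above WT, by a mean of 0.81 that was not called (adjusted p = 0.0657), and dnmt3bb.2-/- overlapped WT. At 1 dpf the probe was above background on the labelled arrays alone, at 4.77, 4.65 and 5.36, which was at least 5.59-fold higher than in dnmt3bb.2-/- (adjusted p = 0.000733, lost with normexp at 0.21 and 0.0635) and at least 2.41-fold higher than in WT without passing the threshold (adjusted p = 0.0174). Probe 1 of stat1b was above background on 9 of 45 arrays and was called in no comparison of genotypes.

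**Figure D3:**
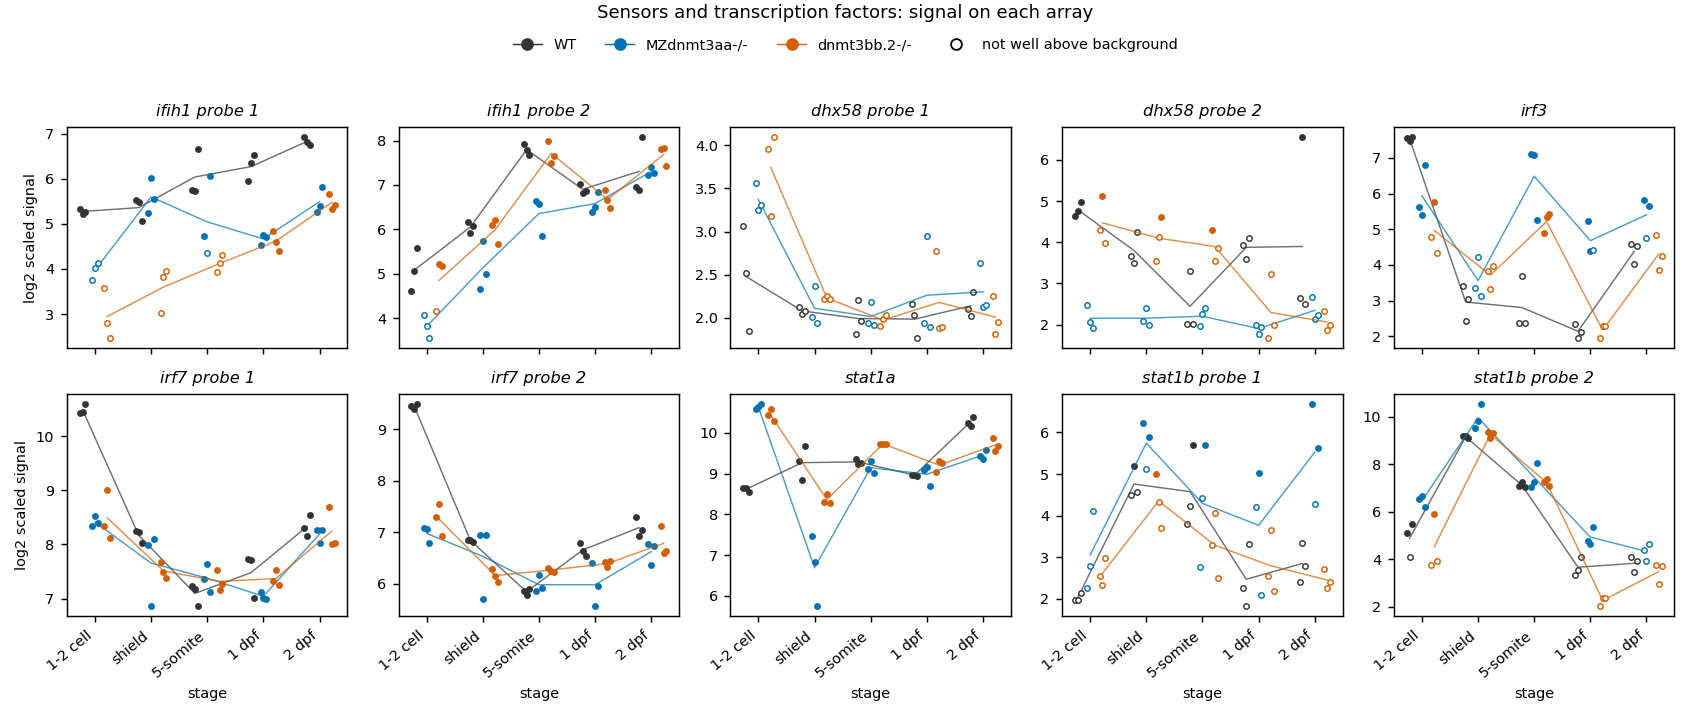
Log2 scaled signal (vertical axes, a scale of its own in each panel) of the 10 probes of sensors and transcription factors at 5 stages (horizontal axis). Each point is 1 array, lines join the means of 3 arrays, and open points were not well above background. The irf7 panels start near 10.5 and 9.4 in WT and about 2 units lower in the mutants.

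Among the member effectors, isg15, a ubiquitin-like protein joined to other proteins after interferon, showed the greatest single difference from WT at shield. WT read 9.69, 9.28 and 9.53 and dnmt3bb.2-/- 13.02, 12.40 and 12.63, 9.09-fold higher with no overlap (log2 difference 3.18, SE 0.19, adjusted p = 7.57e-05). That call held under every alternative run, the slide as a block included (3.15, adjusted p = 0.00201). The arrays labelled MZdnmt3aa-/- read 12.0996, 9.81 and 10.40, all above WT but with a spread that left the mean difference of 1.27 uncalled (SE 0.59, adjusted p = 0.156).

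isg15 was not called in either mutant at another stage. At 1-2 cell it was below background on all 9 arrays and at 5-somite the WT arrays themselves spread from 5.34 to 8.34. At 1 dpf WT read 5.57, 5.60 and 5.29 and dnmt3bb.2-/- 5.64, 5.48 and 5.88. At 2 dpf the arrays labelled MZdnmt3aa-/- read 5.89, 5.71 and 5.95, below WT at 6.50, 6.21 and 6.37, without passing the threshold (-0.51, adjusted p = 0.0226).

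mxa, a dynamin-like GTPase, was lower in dnmt3bb.2-/- at the stage of the isg15 excess. At shield, probe 1 read 8.04, 8.22 and 8.34 in WT and 6.74, 6.55 and 6.65 in dnmt3bb.2-/-, lower on every array by 1.55 (SE 0.09, adjusted p = 7.97e-05), and it was still lower with the slide as a block (-1.69, adjusted p = 0.000923). It fell by 1.02 at 5-somite (WT 6.70, 6.65 and 6.80, dnmt3bb.2-/- 5.86, 5.50 and 5.73, adjusted p = 0.000729) and by 0.96 at 1 dpf (5.85, 5.68 and 5.80 against 4.72, 4.74 and 5.00, adjusted p = 0.000431). In the fit to all 45 arrays, which pools the spread of every group, the adjusted p at these later stages was 0.109 and 0.157.

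On the arrays labelled MZdnmt3aa-/- mxa probe 1 read 7.64, 6.98 and 7.31 at shield, between the other genotypes and not called (-0.89, adjusted p = 0.0222). Probe 2 of mxa was dimmer and pointed the same way in dnmt3bb.2-/-, at -0.75 at shield (adjusted p = 0.0199) and at least 1.92-fold lower at 5-somite (WT 4.92, 4.80 and 5.24, dnmt3bb.2-/- 4.32, 3.73 and 3.72, adjusted p = 0.00751), a call lost without any single WT array or without dnmt3bb.2-/- replicate 2 or 3 (adjusted p up to 0.0268), without the filter on dim probes (0.0101), with trend and robust eBayes (0.0111) and in the fit to all 45 arrays (0.256).

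mxb, another Mx GTPase, was the member seen in mutants alone. At 5-somite WT read 3.46, 3.58 and 3.40, all below background, the arrays labelled MZdnmt3aa-/- 4.79, 4.95 and 4.92 and dnmt3bb.2-/- 5.10, 4.92 and 4.48, all above it. The excess was at least 2.65-fold (adjusted p = 0.000388) and at least 2.56-fold (adjusted p = 0.00143), and with normexp it was -0.055 and 0.11 on the log2 scale. With the slide as a random block the first call was lost (1.41, adjusted p = 0.0187), while in dnmt3bb.2-/- slide and genotype cannot be told apart at this stage. At 1 dpf WT read 1.87, 1.58 and 1.75, dnmt3bb.2-/- 4.10, 4.03 and 4.25 and the labelled arrays 5.27, 5.16 and 3.17, with 2 of 3 arrays above background in each mutant. dnmt3bb.2-/- was at least 2.98-fold higher (adjusted p = 2.07e-05), while the wider spread of the other group left its log2 difference of 2.80 uncalled (adjusted p = 0.0156). At 1-2 cell, shield and 2 dpf mxb was below background on all arrays. Mx genes are close relatives, and whether a probe also binds RNA of another Mx gene was not tested.

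**Figure D4:**
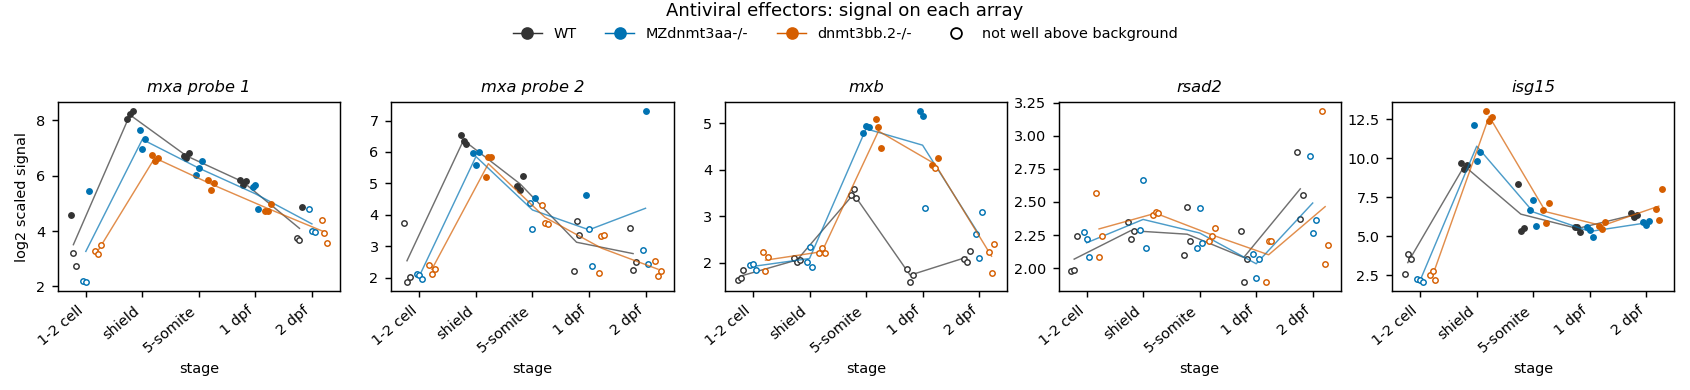
Log2 scaled signal (vertical axes, a scale of its own in each panel) of the 5 effector probes at 5 stages, 1 point per array, lines through the means of 3 arrays, open points not well above background. isg15 reaches 12.40 to 13.02 in dnmt3bb.2-/- at shield against 9.28 to 9.69 in WT, where mxa probe 1 has the opposite order, and rsad2 stays below 3.2 on every array.

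Set directly against each other, the mutants differed at shares of the members near or below those of all probes: 1 of 8 tested probes at 1-2 cell beside 27.8% of all probes, 2 of 11 (13.7% of all probes) at shield, 3 of 13 at 5-somite beside 20.5%, 2 of 12 at 1 dpf beside 21.9% and 0 of 9 at 2 dpf beside 11.4%. At 2 dpf 3 of those 9 had an unadjusted p under 0.05, a share not counted over all probes. At an adjusted p of at most 0.05, 1 of those 9 passed beside 28.0% of all probes. dhx58 probe 2 was called lower on the arrays labelled MZdnmt3aa-/- at 1-2 cell, shield and 5-somite, by at least 3.73-, 1.33- and 1.31-fold, and entered each of these tests through 1 dnmt3bb.2-/- array above background. These calls were lost in 4, 4 and 3 of the 5 fits that left out 1 array and still tested the probe (adjusted p up to 0.0215, 0.0307 and 0.0178). Without that 1 dnmt3bb.2-/- array the probe could not be tested, so the call was absent there too. With trend and robust eBayes these calls were also lost. Those at shield and 5-somite were also lost with the slide as a random block (0.0327 and 0.0718). At shield ifih1 probe 1 was at least 3.995-fold higher on the arrays labelled MZdnmt3aa-/- (adjusted p = 0.00747), a call lost without any single one of the 6 arrays (adjusted p up to 0.029), with the slide as a random block (0.0375) and with normexp (0.17, 0.311). ifih1 probe 2 at 5-somite fell by 1.36 on them relative to dnmt3bb.2-/- (adjusted p = 0.00964). That call was lost in 5 of 6 such leave-outs (up to 0.0352), with the slide as a random block (0.0678) and without the filter on dim probes (0.0115). isg15 at shield was 1.92 lower on those arrays than in dnmt3bb.2-/- without passing the threshold (adjusted p = 0.0574), so that the isg15 excess in dnmt3bb.2-/- is not shown to differ between the mutants.

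Other genes of the pathway were read from a list of 77 symbols, 50 of which had probes (92 probes). Against WT, the called share of these probes was, in stage order, 38 of 61, 9 of 65, 14 of 71, 11 of 74 and 16 of 75 on the arrays labelled MZdnmt3aa-/-, beside 57.3%, 6.59% higher with 5.68% lower, 21.3%, 20.8% and 12.6% of all probes. In dnmt3bb.2-/- it was 22 of 60, 32 of 61, 32 of 68, 32 of 75 and 13 of 76, beside 31.4%, 51.5%, 35.8%, 46.9% and 14.9%. The median log2 difference of the list lay between -0.27 and 0.12 in the 10 comparisons, beside -0.06 to 0.03 over all probes tested, and at every stage members of the list were called in both directions.

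By role, the most changed ligand was ifnphi1, a zebrafish type I interferon, at 5.85 in dnmt3bb.2-/- against 2.70 in WT at 5-somite, at least 6.91-fold higher (adjusted p = 0.000134). No WT array was above background there. Of the 4 ligand probes tested in that comparison, of 3 genes, 2 were called higher and 1 lower, beside 35.8% of all probes called. The lower probe was that of ifnphi3 (-0.54, limma adjusted p = 0.00403). On the arrays labelled MZdnmt3aa-/- at 5-somite, ifnphi4 was called lower (-1.52, limma adjusted p = 0.0048), with 2 of the 4 ligand probes higher, beside 21.3% of all probes called. At 1-2 cell, 2 of 3 ligand probes tested, of 2 genes, were called lower and 0 higher in each mutant. At least 1 of them in each mutant was of ifnphi1. All probes were called there at 57.3% for the label MZdnmt3aa-/- and 31.4% in dnmt3bb.2-/-. Of the receptor genes, ifngr2, a subunit of the interferon gamma receptor, was 4.44 higher on the log2 scale in dnmt3bb.2-/- at 1-2 cell, and ifngr1, another subunit, was at least 8.48-fold higher on the arrays labelled MZdnmt3aa-/- at shield. stat2, a transcription factor that acts below type I interferon receptors, was 2.94 higher in dnmt3bb.2-/- at 1-2 cell. In that comparison 4 of 18 receptor and transducer probes were called higher and 4 lower. For the label MZdnmt3aa-/- at shield 2 of 19 were higher and 1 lower, beside 6.59% and 5.68% of all probes. Of the sensing genes, the RNA receptor tlr3 fell by 3.44 and the adaptor mavs was at least 6.63-fold lower in dnmt3bb.2-/- at 1-2 cell. There 1 of 14 sensing probes was called higher and 3 lower. The kinase gene ikbke was 1.81 higher in dnmt3bb.2-/- at shield, with 2 of 12 sensing probes higher and 2 lower, beside 51.5% of all probes called. Of the negative regulators, on the arrays labelled MZdnmt3aa-/-, socs3a was at least 39.9-fold lower at 1-2 cell and socs1a 1.60 higher at 5-somite. At 1-2 cell socs3a was the 1 lower call of 11 negative regulator probes tested, and 5 were called higher, beside 57.3% of all probes called. At 5-somite 2 of 13 were higher and 0 lower, beside 21.3%. Among the effectors, mxg was at least 10.7-fold higher in dnmt3bb.2-/- at shield, where 4 of 16 effector probes were called higher and 6 lower. On the arrays labelled MZdnmt3aa-/-, mxc fell by 3.98 at 1-2 cell and ifi27.2 was at least 5.71-fold higher at 2 dpf. On these arrays 2 of 15 effector probes were higher and 6 lower at 1-2 cell. At 2 dpf 5 of 17 were higher and 2 lower, beside 12.6% of all probes called. All differences of this paragraph had a limma adjusted p of at most 0.01. For genes given with "at least", no array of 1 group was above background, and their p-values are no support for a difference. Each gene is given at its most changed called probe. mavs and ifi27.2 had 4 probes on the array, ifngr2, stat2 and mxc 3, and tlr3, ifnphi1 and socs1a 2, and their other probes are not given.

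Markers of other cells and of stage moved in some of the same comparisons. Of 10 macrophage and neutrophil symbols, 8 had probes (17 probes; marco and ptprc had none). Their log2 summed signal was 13.30 to 13.38 in WT, 13.53 to 13.84 on the arrays labelled MZdnmt3aa-/- and 12.93 to 13.52 in dnmt3bb.2-/- at 1 dpf, and at 5-somite 10.37 to 10.44, 9.02 to 9.91 and 10.39 to 10.45. At shield the sum was 11.07 to 11.29 in WT and 10.82 to 10.91 in dnmt3bb.2-/-, below WT on every array. Its probes went both ways there, with 5 of 8 tested called (2 higher, 3 lower). Only 5 to 7 of the 17 probes were above background on the dnmt3bb.2-/- arrays and 6 on the WT arrays. At the same stage 5 of 8 maternal marker probes were called lower and 4 of 9 somite and neural probes higher in dnmt3bb.2-/-, with 2 of 9 lower, beside 51.5% of all probes called. At 1 dpf 6 of 7 differentiation probes (1 higher, 5 lower) and 4 of 7 endothelial probes (all higher) were called in dnmt3bb.2-/- beside 46.9%. On the arrays labelled MZdnmt3aa-/- 7 of 16 macrophage and neutrophil probes (6 higher, 1 lower) were called at that stage beside 20.8%. At 1-2 cell 5 of 8 maternal probes (2 higher, 3 lower) were called on these arrays beside 57.3%. The log2 summed signal of differentiation markers there spanned 5.92 to 13.51 on these arrays, 6.60 to 8.30 in WT and 5.96 to 7.39 in dnmt3bb.2-/-, with 0 of 5 probes called on these arrays. That of gastrula organizer and mesoderm markers was 9.72 to 10.33, against 7.84 to 8.13 and 7.41 to 8.10, and the 2 probes tested, of 1 gene, were called higher on these arrays. At 5-somite 8 of 12 somite and neural probes (4 higher, 4 lower) were called in dnmt3bb.2-/- beside 35.8%. Their log2 sum was 16.17 to 16.32 in WT, 15.93 to 16.08 for the label MZdnmt3aa-/- and 16.52 to 16.66 in dnmt3bb.2-/-, so neither mutant overlapped WT. Organizer and mesoderm sums there were 15.28 to 15.36, 14.97 to 15.52 and 15.50 to 15.63. In dnmt3bb.2-/- the endothelial sum also lay above WT, and the maternal and differentiation sums lay below it. At 2 dpf the log2 sums, in the order WT, label MZdnmt3aa-/- and dnmt3bb.2-/-, were as follows. Differentiation markers had 20.32 to 20.44, 19.85 to 20.03 and 19.97 to 20.11. Macrophage and neutrophil markers had 14.28 to 14.57, 14.07 to 14.64 and 13.69 to 14.09. Organizer and mesoderm markers had 13.38 to 13.60, 12.85 to 13.33 and 12.71 to 12.82. Endothelial markers had 13.34 to 13.50, 13.545 to 13.65 and 13.51 to 13.65. Maternal and somite sums overlapped WT. The part of the markers in the differences of the members was not tested.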

How the data were processed

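RNA of 45 embryo pools was labelled with Cy3 and hybridised by the authors to 1-colour Agilent zebrafish arrays. Per the file headers, the spots were read with Agilent Feature Extraction 12.0.3.1, which gives an intensity that is background-subtracted, spatially detrended and never below a small positive surrogate, so signals near the bottom of the scale have no order. The 0 or 1 flags (unit other) for spots well above background, outliers and saturation were deposited beside it, with spot and local background intensities, used for the normexp alternative. That alternative added an offset of 50 before scaling.

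Each array's processed intensity was scaled to a trimmed mean of 2500 (2% off each end), as in the authors' methods, outlier spots were left out, spots of a probe averaged and log2 taken. Probes were named by unversioned accession against a RefSeq gene table, which named 26421 of 43603 probes. Groups of 3 arrays were compared at each stage with limma 3.58.1 in R 4.3.3 (lmFit, eBayes), with Benjamini-Hochberg adjustment over all probes tested and a threshold of 0.01. Probes needed 2 values in each group and 1 of 6 arrays well above background. Whether replicate pools came from separate clutches is not stated beyond biological replicate, and replicate numbers did not pair the arrays: same-numbered arrays had correlations between -0.06 and 0.25 over 19 comparisons. The number of arrays limits the precision.

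The members, the gene lists and the alternatives were chosen with earlier results of these data known. All 15 member probes are reported. Per-array values were planned for those called against WT from 5-somite on or with wide WT ranges, and are also given for other probes and stages chosen after their values were seen, and up to 3 genes per role of the wider list were named by size of change. The fit was tested on simulated data. Chromosome positions and sequences of probes and promoters were not used here.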

Additional observations from a re-analysis of the deposited data

Results flagged for a closer look

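The difference from WT changed with stage at several member probes, by a limma F test of the 4 interaction contrasts over 30 arrays with Benjamini-Hochberg adjustment. On the arrays labelled MZdnmt3aa-/- these were ifih1 probe 1 (adjusted p = 0.006794), irf3 (7.321e-06), irf7 probe 1 (3.01e-05) and probe 2 (6.067e-06), stat1a (1.746e-08) and mxb (0.000121). stat1a was called higher at 1-2 cell and lower at 2 dpf, and irf7 was called at 1-2 cell alone, with means below WT at shield, 1 dpf and 2 dpf as well. irf3 and mxb were called higher at 5-somite, where no WT array was above background. For ifih1 probe 1 the result was lost when any of 11 single arrays was left out (adjusted p up to 0.0303).

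In dnmt3bb.2-/- they were irf3 (adjusted p = 3.063e-07), irf7 probe 1 (6.647e-06) and probe 2 (9.057e-10), stat1a (3.306e-10), mxb (2.314e-09) and isg15 (0.001492), the last with its excess at shield. mxb was above background on 0 of 15 WT arrays, so it entered the F tests of both mutants through mutant arrays alone. Its adjusted p-values are no support for a difference. irf3 was above background on 3 of 15 WT arrays, all at 1-2 cell, so its later differences also rest on WT signals below background. WT arrays are shared by both sets of tests, and the scan day of the 5-somite arrays differed from that of the other WT and dnmt3bb.2-/- arrays, so stage and scan day cannot be told apart there.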

How the results depend on the processing

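The 65 member results called in the comparisons of groups and of stages kept their direction under each alternative run, except 5 under the normexp background correction. Of them, 64 kept their call with 75th percentile scaling, 61 with quantile normalization, 45 with normexp, 61 without the filter on dim probes, 65 with the deposited series table, 60 with trend and robust eBayes and 51 in 1 fit to all 45 arrays. All 58 that were tested under the strict filter kept it. With the slide as a random block 35 of 45 kept it, and as a fixed block 9 of 14. That random block could not be run where each group lay on a slide of its own, and the fixed block only for dnmt3bb.2-/- against WT outside 5-somite. The deposited series table held the same values as the scaled intensities used here, so its 65 kept calls were fixed in advance. Signals near background limit irf3, mxb, dhx58, stat1b probe 1 and, at early stages, ifih1 probe 1. Causes of these changes were not tested.

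With normexp, dhx58 probe 2 turned to 0.13 from 1-2 cell to shield in WT, to 0.55 on the arrays labelled MZdnmt3aa-/- against WT and to 0.45 against dnmt3bb.2-/- at 1-2 cell. ifih1 probe 1 turned to 0.56 on the arrays labelled MZdnmt3aa-/- against WT at 1-2 cell, mxb to -0.055 at 5-somite and the uncalled ifih1 probe 2 to 0.15 in dnmt3bb.2-/- at shield. Normexp moved the median over all probes to 0.38 for the label MZdnmt3aa-/- against WT at 1-2 cell and to -0.13 at 5-somite, and the share of higher calls over all probes from 46.1% to 28.8% at that stage, from 48.2% to 58.8% for dnmt3bb.2-/- at 1-2 cell and from 49.5% to 35.4% between the mutants at 5-somite. In WT, quantile normalization moved it from 58.0% to 46.8%, from 50.5% to 39.2% (39.2% with normexp) and from 54.7% to 42.2% in the 3 later steps. Counts over all probes changed by over 1.5 times in 46 of 208 combinations of comparison and alternative, from 0.05 to 3.11 times the reported count.

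Counts of member probes called changed as follows. Percentages give the share of all probes called under the same alternative. For the label MZdnmt3aa-/- against WT at 1-2 cell (5 reported, 57.3%) they were 1 with normexp (17.7%). They were 8 with the strict filter (65.6%), with all 45 arrays (51.7%) and with a threshold of 0.05 (69.8%). At shield (0) they were 2 with all 45 arrays (38.1%) and with the 0.05 threshold (30.1%). They were 1 there without the filter (8.09%), with the strict filter (16.2%), normexp (11.1%), trend and robust eBayes (15.2%) or the random slide block (19%). At 5-somite (3) it was 0 with the random slide block, at 1 dpf (2) 4 with all 45 arrays or the 0.05 threshold and 1 with the strict filter, and at 2 dpf (2) 4 with the 0.05 threshold. For dnmt3bb.2-/- against WT it was 3 at 1-2 cell (5) with the fixed slide block, 3 with all 45 arrays and 4 with normexp at 5-somite (7), and 5 with the 0.05 threshold at 1 dpf (3). At 2 dpf (1) it was 2 with normexp, trend and robust eBayes or the 0.05 threshold, and 0 with the fixed slide block.

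Between the mutants at 1-2 cell (1) the count was 3 with all 45 arrays (49.8% of all probes) and 2 with the 0.05 threshold (48.3%). It was 0 with trend and robust eBayes, normexp (3.26%) or the strict filter. At shield (2) it was 4 with all 45 arrays (39.4%) or the 0.05 threshold (32.2%). It was 1 there with trend and robust eBayes or the strict filter, and 0 with normexp or the random slide block (4.05% for the block). At 5-somite (3) it was 1 with all 45 arrays (36.3%) or without the filter, and 0 with the random slide block (2.25%). At 1 dpf (2) it was 1 with the strict filter and 0 with normexp. At 2 dpf (0) it was 1 with all 45 arrays (22.8%) or the 0.05 threshold (28.0%). In WT from 1 dpf to 2 dpf (3) it was 6 with the 0.05 threshold, 5 with normexp and 1 with the random slide block (37.4%). Member probes whose difference changed with stage numbered 2 for the label MZdnmt3aa-/- and 11 for dnmt3bb.2-/- with normexp (6 and 6). The share of all probes was not counted for that F test with normexp.

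With the replicate number as a block, 45 of the 65 calls were kept, although the numbers did not pair the arrays. The block gave counts of 1 at 5-somite and 0 at 2 dpf for the label MZdnmt3aa-/- against WT, beside 2.88% and 0.928% of all probes. For dnmt3bb.2-/- against WT it gave 2 at 1-2 cell and 4 at 5-somite, beside 11.6% and 22.4%. Between the mutants it gave 0, 0, 0 and 1 at 1-2 cell, shield, 5-somite and 1 dpf, beside 4.28%, 2.61%, 3.42% and 3.93%.

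The share of all probes called also moved when 1 array was left out. For the label MZdnmt3aa-/- against WT it was 44.2% to 61.9% at 1-2 cell, 2.57% to 15.9% at shield and 5.46% to 39.2% at 5-somite. Shares of the other comparisons are not given here. Among member probes, leaving out 1 array at a time kept 296 of 386 calls. The counts ranged, in stage order, over 5 to 6, 0 to 1, 1 to 4, 0 to 4 and 0 to 2 for the label MZdnmt3aa-/- against WT, over 2 to 5, 3 to 6, 4 to 7, 3 to 4 and 1 to 1 for dnmt3bb.2-/- against WT, over 0 to 1, 0 to 1, 0 to 4, 2 to 4 and 0 to 1 between the mutants, over 8 to 10, 6 to 7, 5 to 6 and 2 to 3 in the WT steps, and over 5 to 7 and 6 to 8 for the differences between stages.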

Other observations

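Over the 15 group means, the named probes whose pattern was most like that of a member were found among 25252 probes detected on every array of some group. Taking the brightest probe of each member and its 1 closest partner, the 5 highest Pearson correlations were 0.98 for stat1b probe 2 with u2af2a, 0.97 for ifih1 probe 2 with ano10b, 0.97 for mxa probe 1 with si:ch211-151h10.2, 0.96 for isg15 with bambia and 0.95 for irf7 probe 1 with zyg11. The points share stages and arrays, and stage alone sets much of each pattern. Nothing is implied about shared function or control.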
